A study of Mus musculus with 18 samples.

Results

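Glucose uptake, glycolysis, lactate handling, the entry of pyruvate into mitochondria and the pentose phosphate pathway were followed through 37 listed genes in 18 mouse melanoma allografts. The genes were chosen by name, and every probe set (a group of short probes that reads 1 transcript) whose only gene symbol in the platform annotation was a listed gene was taken. This gave 73 probe sets for 33 of the 37 genes, out of 34945 probe sets with 1 symbol and 18193 genes on the array. Each of the 33 genes was read from the probe set with the highest mean log2(intensity + 16), and all 33 passed a filter on dim signal that 15005 genes passed. Gpi1, Gapdh, Eno1 and G6pdx were not analysed here.

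All 18 tumours grew in the skin of nude mice, hosts that lack mature T cells but keep macrophages and other stroma, after injection of iNRAS-475. This is a single mouse melanoma line with a doxycycline-inducible NRAS oncogene, so differences between lines cannot be seen. Drinking water held doxycycline at 2 mg/ml, and after 6 weeks tumour volumes were 200 to 500 mm3. The vehicle group (6 tumours) and the MEK inhibitor group (6 tumours, 100 mg/kg AZD6244, also called selumetinib, for 4 days) are not said to have stopped doxycycline, whereas the NRAS-off group (6 tumours) had it withdrawn for 4 days. Loss of doxycycline and loss of the oncogene therefore cannot be told apart. Each tumour is a distinct biological replicate, read on 1 Affymetrix array from roughly 50 mg of tissue with the skin removed, and the number of arrays limits the precision.

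As background, cells take up glucose through SLC2A transporters, trap it with a hexokinase and split it to pyruvate through the steps of glycolysis. Lactate dehydrogenase turns pyruvate into lactate, which leaves the cell through SLC16A transporters, while pyruvate dehydrogenase sends pyruvate into the mitochondrial cycle unless a PDK kinase switches it off. The pentose phosphate pathway branches off after the hexokinase step, makes NADPH in its oxidative arm and exchanges sugars with glycolysis in its non-oxidative arm. Many tumours, melanoma included, use glycolysis heavily, and RAS signalling, MYC and the hypoxia factor HIF1A are known to raise several of its genes.

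The arrays had median intensities of 72.3 to 78.5, and the log2 values of tumours within a group had correlations of 0.9783 to 0.9967. The 3 probe sets of mouse Nras fell in the NRAS-off tumours by 0.19 to 0.43 and in the MEK inhibitor tumours by 0.23 to 0.31 (log2), and none differed between these 2 groups at the threshold (limma adjusted p of 0.189 to 0.442). Whether these probe sets read the transgene is not given in the labels, and the switch itself is therefore not checked. The melanocyte lineage gene Sox10 read 7901 to 16610 across the 18 tumours, and the pigment genes Tyr, Tyrp1 and Gpr143 did not pass the filter. Of the 6 melanocytic markers tested 4 rose and 0 fell with NRAS off (31.8% and 27.5% of all genes). By the ratio of mean intensities the risen markers were Pmel (6.20-fold), Mlana (2.58-fold), Mitf (1.89-fold) and Dct (1.42-fold). Their fitted log2 changes were 2.30, 0.94, 0.89 and 0.37. Mlana read 19.1 to 27.7 in vehicle and 39.1 to 71.3 in NRAS-off tumours. With the MEK inhibitor 2 rose and 0 fell (24.3% and 20.9% of all genes), Pmel by 0.80 and Sox10 by 0.50 (log2). NRAS-off replicate 2 carried far more keratinocyte transcript than any other tumour (Krt14 6785 against 18.3 to 161 elsewhere), and MEK inhibitor replicate 4 had the highest skeletal muscle score of its group. Leaving out both of these tumours ended the calls of Pgk1 (−0.19) and Pgd (0.18) against vehicle in the MEK inhibitor tumours, called Eno2 lower in NRAS-off than in MEK inhibitor tumours (fell by 0.45), and changed no other call of the 33 genes.

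The promoters of 5 of the 13 genes changed at least 2-fold in any contrast are shown first, to place the sequence before the values. Each is the stretch upstream of the first listed transcription start, taken from RefSeq windows on GRCm38.p6 and printed 5′ to 3′ on the strand of the gene. Capitals mark ACGTG, the core of the element bound by hypoxia factors, on either strand (its reverse complement reads CACGT, and the E-box CACGTG holds the core on both strands).
Slc2a1, chr4:119108535-119108744, plus strand: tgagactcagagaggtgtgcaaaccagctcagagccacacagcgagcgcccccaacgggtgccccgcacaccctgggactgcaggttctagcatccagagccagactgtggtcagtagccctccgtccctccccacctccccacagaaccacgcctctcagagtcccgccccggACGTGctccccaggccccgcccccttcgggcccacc
Pgk1, chrX:106186890-106187099, plus strand: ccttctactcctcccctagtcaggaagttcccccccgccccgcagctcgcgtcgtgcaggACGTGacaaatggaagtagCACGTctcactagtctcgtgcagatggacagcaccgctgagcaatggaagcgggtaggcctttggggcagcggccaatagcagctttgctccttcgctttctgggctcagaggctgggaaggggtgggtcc
Ldha, chr7:46845594-46845803, plus strand: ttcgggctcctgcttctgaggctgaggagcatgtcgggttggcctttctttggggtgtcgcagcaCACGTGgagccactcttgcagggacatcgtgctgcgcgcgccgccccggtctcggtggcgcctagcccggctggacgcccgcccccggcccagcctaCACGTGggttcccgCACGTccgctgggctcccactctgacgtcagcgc
Slc16a1, chr3:104638454-104638663, plus strand: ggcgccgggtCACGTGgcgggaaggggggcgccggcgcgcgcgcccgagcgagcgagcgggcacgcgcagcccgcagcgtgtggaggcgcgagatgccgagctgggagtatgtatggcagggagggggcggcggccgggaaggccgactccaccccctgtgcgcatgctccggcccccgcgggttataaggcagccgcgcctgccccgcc
Ldhb, chr6:142507958-142508167, minus strand: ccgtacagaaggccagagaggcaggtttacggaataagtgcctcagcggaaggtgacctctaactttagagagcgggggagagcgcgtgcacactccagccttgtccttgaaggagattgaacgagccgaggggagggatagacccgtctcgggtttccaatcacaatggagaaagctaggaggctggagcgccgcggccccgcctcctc
The Slc2a1 stretch held 1 match, the Pgk1 stretch 2, the Slc16a1 stretch 2 and the Ldha stretch 5, while the Ldhb stretch held 0. Of the 33 genes, 32 had a RefSeq window (250 bases before to 50 bases after the start), and Slc2a3 had none in the table used. ACGTG stood in at least 1 window of 16 of these 32 genes (50.0%), against 26.1% of 14452 genes of the array. By window it stood in 20 of the 47 windows of these genes (42.6%), against 19.6% of all 32851 windows of the same length. CACGTG stood in 6 of 32 (18.8%, against 10.2% of array genes) and the AP-1 motif TGANTCA in 1 of 32 (3.12%, against 7.54%). By the result in the NRAS-off tumours, ACGTG stood in 11 of 20 genes that fell, 3 of 5 that rose and 2 of 7 that passed in neither direction. CACGTG stood in 3 of 20, 3 of 5 and 0 of 7. The printed stretches do not stand for all genes changed at least 2-fold. Of those not printed, ACGTG stood in a window of Hk1, Pkm and the risen Pfkm, and in none of Pfkl, Pfkfb4, Pdk1 and Pdk4. A match describes letters in a window and is neither a binding site nor a cause.

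Most of the pathway was lower 4 days after doxycycline withdrawal. In the NRAS-off tumours 21 of 33 genes fell, 5 rose (Pfkm, Pfkfb2, Ldhb, Pdk2 and Rpia) and 7 did not pass against vehicle, with a median change of −0.41 on the log2(intensity + 16) scale. A gene passed at an adjusted p under 0.05 (limma, Benjamini-Hochberg over 15005 genes), and the same test called 59.3% of all genes, 31.8% upward and 27.5% downward, around a median of 0.004. Against that background 63.6% of the 33 genes fell and 15.2% rose. Of the 33 genes, 16 fell and 5 rose without overlap of the 2 groups (18.4% and 20.7% of all genes). Among called genes of the whole array, 2759 of 4127 that fell and 3109 of 4772 that rose did not overlap. At least 2-fold, 8 of the 33 fell and 2 rose (4.22% and 6.28% of all genes).

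With the MEK inhibitor 10 of 33 genes rose against vehicle, 10 fell and 13 did not pass, with a median of −0.07. Of all genes 45.2% were called (24.3% upward, 20.9% downward, median 0.009), so the members' 30.3% in each direction lie near the background. Of the 33 genes, 4 rose and 7 fell without overlap of the groups (12.8% and 12.5% of all genes). Among called genes of the whole array, 1917 of 3645 that rose and 1883 of 3142 that fell did not overlap. At least 2-fold changes were limited to Slc2a3 and Slc16a1, which fell, and Pdk4, which rose (background 2.09% downward, 1.85% upward). Both contrasts against vehicle use the same 6 vehicle tumours, so their values are set side by side here and are not independent of each other.

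Compared directly, NRAS-off tumours had less of 17 of the 33 genes than MEK inhibitor tumours, more of 3 (Pfkfb2, Ldhb and Rpia) and 13 did not pass, with a median of −0.35. Of all genes 47.0% were called in this contrast (24.3% upward, 22.7% downward, median −0.009). Of the 33 genes, 15 were lower and 2 higher without overlap of the groups (13.2% and 14.9% of all genes). Among called genes of the whole array, 1986 of 3400 lower and 2241 of 3652 higher ones did not overlap. At least 2-fold, 3 genes were lower (Slc2a1, Pfkl and Pdk1) and 0 higher (background 2.75% and 4.49%). In bulk tissue, fewer cells of a type and less RNA per cell cannot be told apart for any of these values.

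**Figure D1:**
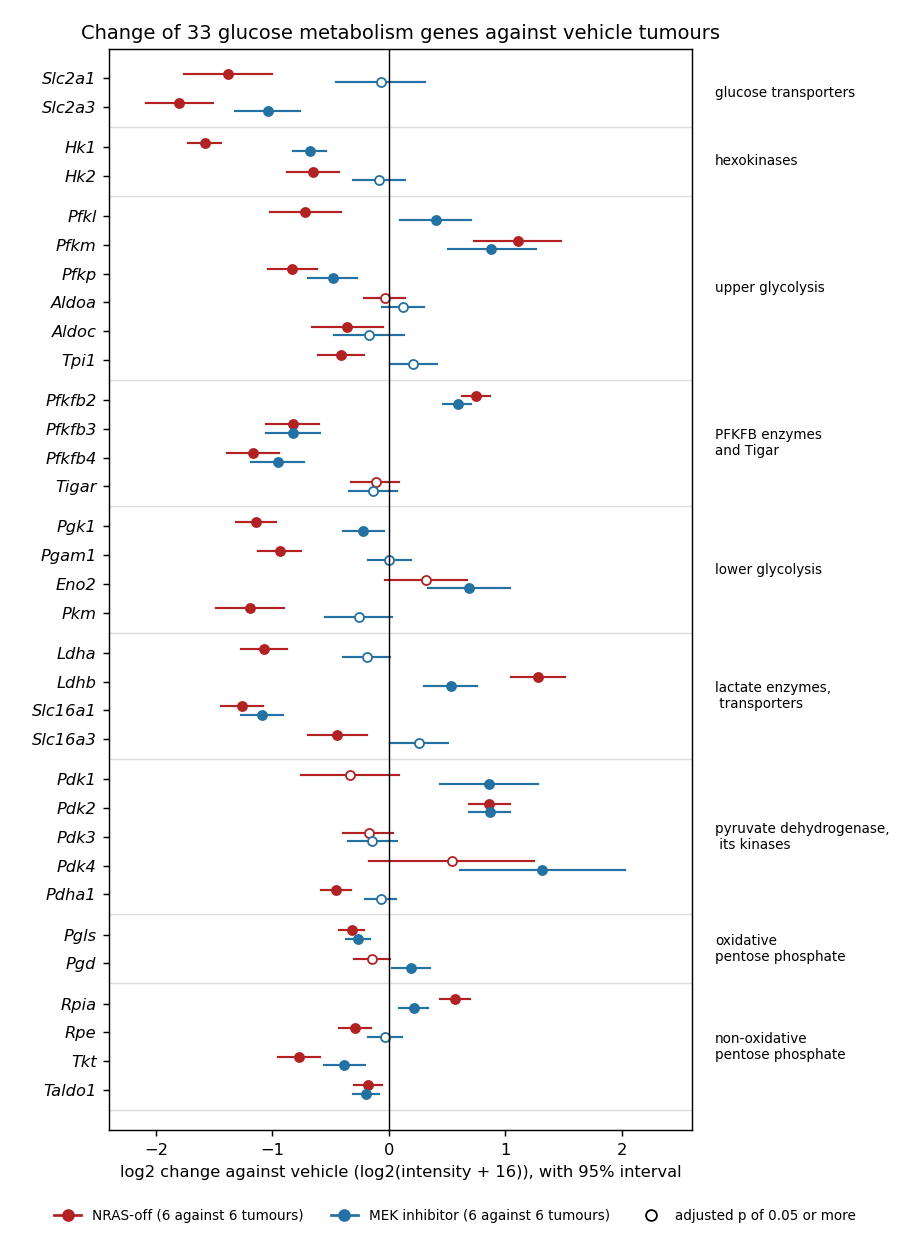
Log2 change of the 33 genes against vehicle on the log2(intensity + 16) scale (x axis), ordered by role (y axis), for NRAS-off (red) and MEK inhibitor tumours (blue), 6 against 6 tumours each. Points are limma estimates with 95% intervals, open where the adjusted p is 0.05 or more. Slc2a1, Pgk1, Pgam1, Pkm and Ldha sit between −0.26 and 0.002 in blue and between −0.93 and −1.38 in red, and Slc16a1, Pfkfb3 and Pfkfb4 fell in both.

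The 2 listed glucose transporters were lowest in the NRAS-off tumours. Of 8 other sugar transporters tested, 3 rose and 3 fell with NRAS off (31.8% and 27.5% of all genes). Slc2a1, which encodes the widespread glucose transporter GLUT1, ranged from 1939 to 3512 (median 2926) in vehicle, from 849.8 to 1599 (median 1001) in NRAS-off and from 1999 to 3746 (median 2474) in MEK inhibitor tumours. Every NRAS-off tumour was below every tumour of both other groups, which covered the same range. It fell by 1.38 ± 0.18 (SE) on the log2 scale with NRAS off (2.64-fold, adjusted p = 2.57e-06) and differed by −0.07 ± 0.18 with the MEK inhibitor (95% interval −0.45 to 0.31, adjusted p = 0.801). The treated groups differed by −1.31 ± 0.18 (NRAS-off minus MEK inhibitor, adjusted p = 7.86e-06). The highest NRAS-off value, 1599, came from the keratinocyte-rich replicate 2. Without that tumour the fall was still called (adjusted p = 4.73e-07). Its other 2 probe sets fell by 1.46 and 1.52 with NRAS off.

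Slc2a3, which encodes the high-affinity transporter GLUT3, fell furthest of the 33 genes with NRAS off. It ranged from 3905 to 6451 (median 4850) in vehicle, from 1268 to 1698 (median 1372) in NRAS-off and from 1954 to 3628 (median 2323) in MEK inhibitor tumours. The 3 groups did not overlap, with MEK inhibitor tumours between the other 2. The falls were 3.53-fold with NRAS off (log2 −1.80 ± 0.14, adjusted p = 1.63e-09) and 2.05-fold with the MEK inhibitor (−1.04 ± 0.14, adjusted p = 4.82e-06), and the treated groups differed by −0.76 ± 0.14 (adjusted p = 0.000124).

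The hexokinases, which trap glucose in the cell, fell as well. Hk1, the housekeeping form, ranged from 2436 to 2913 (median 2728) in vehicle, from 782.7 to 972.7 (median 894.5) in NRAS-off and from 1533 to 1856 (median 1671) in MEK inhibitor tumours. These groups also stood apart in the same order, and the spread within each was small. Hk1 fell by 1.58 ± 0.07 with NRAS off (3.02-fold, adjusted p = 9.52e-13) and by 0.68 ± 0.07 with the MEK inhibitor (1.60-fold, adjusted p = 1.65e-07). Hk2, the inducible form linked to tumour glycolysis, averaged 734 ± 94.6 (SD, n = 6) in vehicle, 461 ± 60.0 (n = 6) in NRAS-off and 692 ± 99.5 (n = 6) in MEK inhibitor tumours. It fell by 0.65 ± 0.11 with NRAS off (adjusted p = 3.02e-05) and differed by −0.08 ± 0.11 with the MEK inhibitor (adjusted p = 0.561), and the difference between the treated groups passed (−0.57 ± 0.11, adjusted p = 0.0002).

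**Figure D2:**
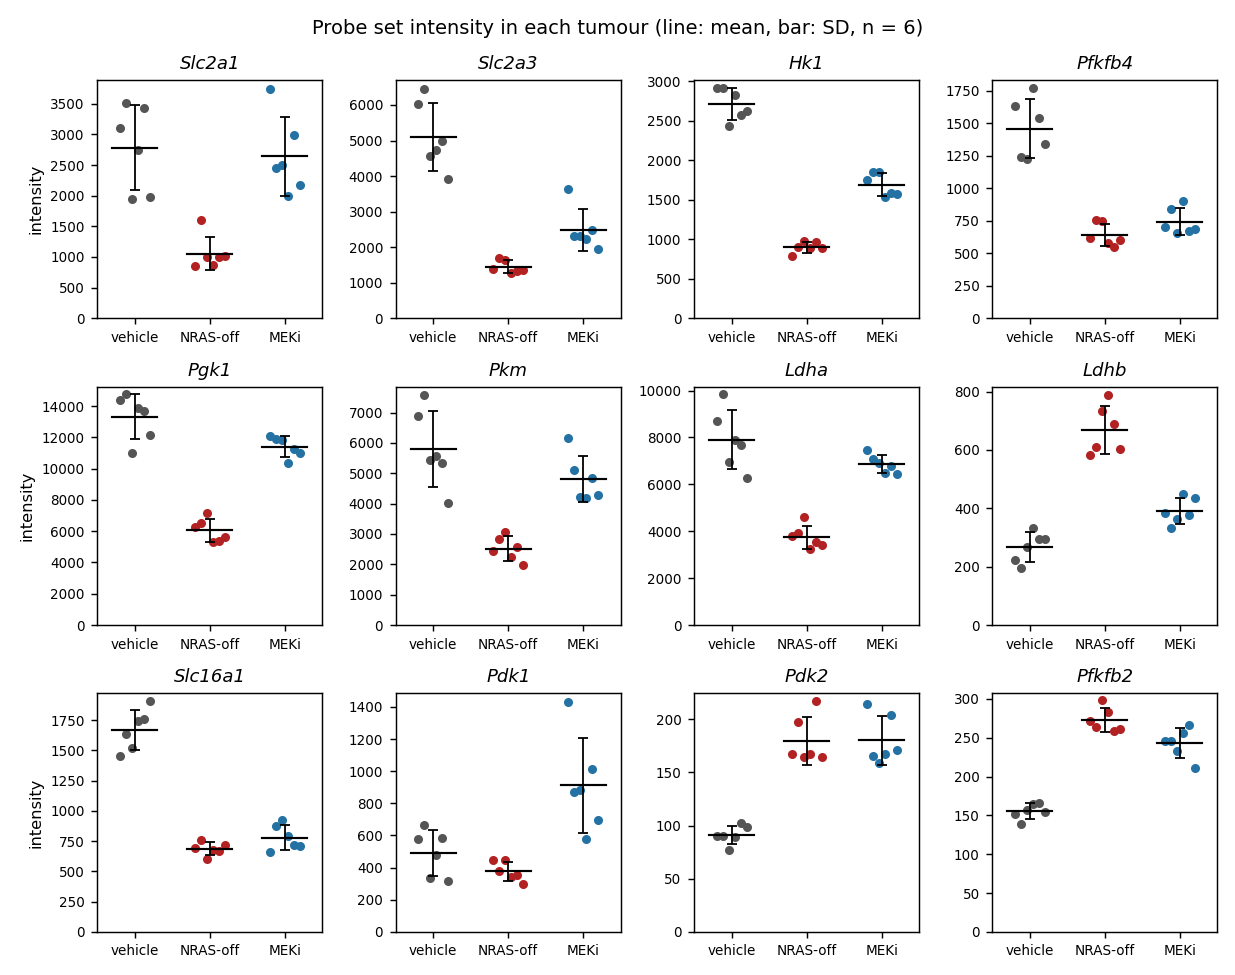
Probe set intensity (y axis, linear, from 0) in each of the 18 tumours for 12 genes, by group (x axis); each point is a tumour, the line is the mean and the bar the SD (n = 6). NRAS-off tumours lie below both other groups for Slc2a1, Slc2a3, Hk1, Pgk1, Pkm and Ldha and above both for Ldhb, while Pfkfb4, Slc16a1 and Pdk2 sit at like levels in both treated groups.

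The 3 isoforms of phosphofructokinase, which commits sugar to glycolysis, went different ways. Pfkl, the liver-type isoform, ranged from 704.1 to 1101 (median 941.5) in vehicle, from 418.5 to 701.6 (median 529.7) in NRAS-off and from 905.5 to 1702 (median 1196) in MEK inhibitor tumours. NRAS-off tumours lay below all others, and MEK inhibitor tumours overlapped with vehicle at the lower end. It fell by 0.72 ± 0.15 with NRAS off (adjusted p = 0.000311) and rose by 0.41 ± 0.15 with the MEK inhibitor (adjusted p = 0.028), a 2.22-fold gap between the treated groups (−1.12 ± 0.15, adjusted p = 3.33e-06). The rise did not pass without vehicle replicate 3 or 6 or MEK inhibitor replicate 1 or 5 (0.31 to 0.39), nor in 1 of its other 2 probe sets (0.20). Pfkp, the platelet-type isoform, fell by 0.83 ± 0.10 with NRAS off and by 0.48 ± 0.10 with the MEK inhibitor. The MEK inhibitor fall of Pfkp did not pass in 1 dimmer probe set (−0.18, adjusted p = 0.317) or with a muscle score as covariate (−0.30, adjusted p = 0.105).

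Pfkm, the muscle isoform, rose. It ranged from 386.5 to 712.5 (median 630.7) in vehicle, from 1039 to 1923 (median 1129) in NRAS-off and from 916.6 to 1728 (median 975.1) in MEK inhibitor tumours. Both treated groups lay above all vehicle tumours and overlapped with each other. The rises were 2.19-fold (1.11 ± 0.18, adjusted p = 2.68e-05) and 1.87-fold (0.88 ± 0.18, adjusted p = 0.000497), and its relation to muscle transcript is given further on.

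The aldolases and triose phosphate isomerase, which split the sugar and interconvert the pieces, moved less. Aldoa, the main aldolase, averaged 10920 ± 1179 in vehicle, 10670 ± 1249 in NRAS-off and 11870 ± 1139 in MEK inhibitor tumours (SD, n = 6 each) and passed in no contrast, though another probe set was lower with NRAS off than with the MEK inhibitor (−0.25, adjusted p = 0.0183). For Aldoa the 95% interval with NRAS off was −0.21 to 0.14, so a fall of the size of Slc2a1 lies outside it. Aldoc, a dim gene at 50.9 ± 8.13 in vehicle, fell by 0.36 ± 0.15 with NRAS off (adjusted p = 0.0412), a call lost without vehicle replicate 1, 2 or 5 or NRAS-off replicate 4, 5 or 6 (−0.30 to −0.34). Tpi1 fell by 0.41 ± 0.10 with NRAS off (adjusted p = 0.00118) and differed by 0.21 ± 0.10 with the MEK inhibitor (adjusted p = 0.0821). Its other 2 probe sets rose in MEK inhibitor tumours by 0.31 and 0.41, and the treated groups did not overlap (−0.62 ± 0.10, adjusted p = 2.77e-05).

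The PFKFB enzymes make and break the small sugar phosphate that switches phosphofructokinase on, and they responded to both treatments. Pfkfb4, an isoform often raised in tumours, ranged from 1227 to 1774 (median 1440) in vehicle, from 550.5 to 752 (median 610.8) in NRAS-off and from 654.8 to 901.5 (median 692.7) in MEK inhibitor tumours. Both treated groups lay below all vehicle tumours and overlapped with each other. It fell 2.27-fold (−1.16 ± 0.11, adjusted p = 2.55e-08) and 1.96-fold (−0.96 ± 0.11, adjusted p = 8.26e-07), and the treated groups differed by −0.21 ± 0.11 (95% interval −0.43 to 0.02, adjusted p = 0.125). Pfkfb3, the isoform with the strongest kinase activity, fell by 0.83 ± 0.11 and 0.82 ± 0.11, and the treated groups differed by −0.01 ± 0.11 (95% interval −0.23 to 0.22).

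Pfkfb2, an isoform known from heart, rose. It ranged from 138.6 to 166.0 (median 155.8) in vehicle, from 259 to 299.2 (median 267.8) in NRAS-off and from 211.3 to 266.6 (median 245.5) in MEK inhibitor tumours. Both treated groups stood above vehicle, with rises of 0.75 ± 0.06 (adjusted p = 1.74e-09) and 0.59 ± 0.06 (adjusted p = 1.23e-07). A dimmer probe set of the gene did not follow (−0.10 and −0.09, adjusted p = 0.156 and 0.224). The further difference between treated groups (0.16 ± 0.06, adjusted p = 0.0268) was lost under median centring (0.13) and quantile normalization (0.14), with the mean of all probe sets (0.031) and without NRAS-off replicate 3 or 4 or MEK inhibitor replicate 3 or 6 (0.12 to 0.15). Tigar, a phosphatase that lowers the same activator, averaged 81.1 ± 15.4, 73.4 ± 10.2 and 72.2 ± 9.04 in vehicle, NRAS-off and MEK inhibitor tumours and passed in no contrast; another probe set was higher with NRAS off than with the MEK inhibitor (0.19, adjusted p = 0.023).

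Of the 4 genes of lower glycolysis, the ATP-yielding part, 3 fell with NRAS off (27.5% of all genes fell), while 1 fell and 1 rose with the MEK inhibitor (20.9% and 24.3% of all genes). Pgk1, phosphoglycerate kinase, ranged from 11010 to 14780 (median 13800) in vehicle, from 5292 to 7193 (median 5947) in NRAS-off and from 10380 to 12070 (median 11580) in MEK inhibitor tumours. NRAS-off tumours stood apart from both other groups, which overlapped. It fell 2.20-fold with NRAS off (−1.14 ± 0.08, adjusted p = 9.16e-10) and 1.17-fold with the MEK inhibitor (−0.22 ± 0.08, adjusted p = 0.0378). The MEK inhibitor call was lost without vehicle replicate 1, 2, 4 or 5 or MEK inhibitor replicate 4, 5 or 6 (−0.18 to −0.21). This fall did not pass in another probe set (−0.06, limma adjusted p = 0.554) or with the mean of all probe sets (−0.165, limma adjusted p = 0.0798). The treated groups differed by −0.92 ± 0.08 (adjusted p = 2.95e-08). Pgam1, the mutase of the next step, averaged 4549 ± 619 in vehicle, 2367 ± 242 in NRAS-off and 4534 ± 392.0 in MEK inhibitor tumours (SD, n = 6 each). It fell by 0.93 ± 0.09 with NRAS off (adjusted p = 4.12e-08), and the MEK inhibitor difference was 0.002 ± 0.09, with a 95% interval of −0.18 to 0.19.

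Pkm, pyruvate kinase, makes the last ATP of glycolysis. It ranged from 4034 to 7578 (median 5510) in vehicle, from 1969 to 3072 (median 2503) in NRAS-off and from 4179 to 6164 (median 4568) in MEK inhibitor tumours. Again only the NRAS-off tumours stood apart. The fall was 2.31-fold (−1.19 ± 0.14, adjusted p = 5.18e-07), and the MEK inhibitor difference did not pass (−0.26 ± 0.14, adjusted p = 0.141), although it did without vehicle replicate 6 (−0.36, adjusted p = 0.0281). Eno2, the neuronal enolase, went another way, at 307 ± 75.5 in vehicle, 378 ± 28.7 in NRAS-off and 508 ± 153 in MEK inhibitor tumours (SD, n = 6 each). It rose by 0.69 ± 0.17 with the MEK inhibitor (adjusted p = 0.00213) and differed by 0.32 ± 0.17 with NRAS off (adjusted p = 0.108). MEK inhibitor replicate 1 held the highest Eno2 value, 793.5.

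At the lactate step the 2 dehydrogenase genes moved in opposite directions. Ldha, whose subunit favours making lactate, ranged from 6291 to 9841 (median 7802) in vehicle, from 3233 to 4589 (median 3670) in NRAS-off and from 6452 to 7453 (median 6841) in MEK inhibitor tumours. NRAS-off tumours lay below all others, and the MEK inhibitor tumours fell inside the vehicle range. Ldha fell 2.11-fold with NRAS off (−1.07 ± 0.10, adjusted p = 1.74e-08), and the MEK inhibitor difference was −0.19 ± 0.10 (adjusted p = 0.119), called only without vehicle replicate 6 (−0.25, adjusted p = 0.0306).

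Ldhb, whose subunit favours using lactate, ranged from 197 to 333 (median 280.2) in vehicle, from 580.9 to 787.7 (median 650.1) in NRAS-off and from 333.1 to 450.2 (median 379.5) in MEK inhibitor tumours. NRAS-off tumours stood above both other groups, and the lowest MEK inhibitor tumour touched the highest vehicle tumour without crossing it. Ldhb rose 2.49-fold (1.28 ± 0.11, adjusted p = 1.14e-08) and 1.46-fold (0.53 ± 0.11, adjusted p = 0.000657), and the treated groups differed by 0.75 ± 0.11 (adjusted p = 1.68e-05). All 4 probe sets rose with NRAS off (0.96 to 1.49), and 3 of 4 with the MEK inhibitor. The Ldhb promoter stretch printed above held no ACGTG and the Ldha stretch 5, which describes these 2 stretches and draws no link to the changes.

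The lactate transporters differed from each other too. Slc16a1, which encodes MCT1, ranged from 1457 to 1906 (median 1686) in vehicle, from 602.8 to 760.7 (median 683.7) in NRAS-off and from 657.7 to 925.2 (median 753) in MEK inhibitor tumours. Both treated groups lay below vehicle and overlapped with each other. It fell 2.43-fold (−1.26 ± 0.08, adjusted p = 3.29e-10) and 2.14-fold (−1.09 ± 0.08, adjusted p = 7.3e-09), with −0.17 ± 0.08 between the treated groups (95% interval −0.35 to 0.01, adjusted p = 0.108). Slc16a3, which encodes the lactate exporter MCT4, was dim at 55.9 ± 10.5 in vehicle, 36.6 ± 4.74 in NRAS-off and 70.7 ± 16.6 in MEK inhibitor tumours (SD, n = 6 each). It fell by 0.44 ± 0.12 with NRAS off (adjusted p = 0.00326), differed by 0.26 ± 0.12 with the MEK inhibitor (adjusted p = 0.0809) and separated the treated groups without overlap (−0.70 ± 0.12, adjusted p = 6.54e-05). Without vehicle replicate 1 or MEK inhibitor replicate 6 its MEK inhibitor difference passed (0.32 and 0.35).

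Of the 4 kinases that switch pyruvate dehydrogenase off, 1 rose with NRAS off and 3 with the MEK inhibitor, where 31.8% and 24.3% of all genes rose, and 0 fell. Pdk1, a target of hypoxia factors, ranged from 316.8 to 663.1 (median 529.4) in vehicle, from 298.6 to 449.8 (median 365.4) in NRAS-off and from 580.8 to 1428 (median 876.8) in MEK inhibitor tumours. MEK inhibitor tumours stood above all NRAS-off tumours and overlapped with vehicle. Pdk1 rose by 0.86 ± 0.20 with the MEK inhibitor (1.85-fold, adjusted p = 0.00154), and the treated groups differed 2.41-fold (−1.19 ± 0.20, adjusted p = 6.11e-05). With NRAS off it differed by −0.33 ± 0.20 (adjusted p = 0.162), while 2 dimmer probe sets fell (by 0.46 and 0.59). The MEK inhibitor rise did not pass in 1 of these 2 probe sets (0.30, adjusted p = 0.0952). The replicate 1 tumour held the highest Pdk1 value of the MEK inhibitor group, 1428, as it did for Slc2a1, Slc2a3, Pfkl and Eno2.

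Pdk2 is the widely expressed kinase of the family. It averaged 91.3 ± 8.67 in vehicle, 179.8 ± 22.5 in NRAS-off and 180.1 ± 23.0 in MEK inhibitor tumours (SD, n = 6 each). Every treated tumour was above every vehicle tumour, with rises of 0.86 ± 0.08 (adjusted p = 4.55e-08) and 0.87 ± 0.08 (adjusted p = 1.26e-07). The interval between the treated groups was −0.18 to 0.17. Pdk4, the kinase raised in fasting muscle, rose by 1.32 ± 0.34 with the MEK inhibitor (842 ± 555 against 317 ± 149, adjusted p = 0.0036) with overlapping groups, and by 1.04 without MEK inhibitor replicate 4, whose value was 1925. With NRAS off Pdk4 averaged 433 ± 108 and differed by 0.54 ± 0.34 (adjusted p = 0.179). Pdk3 passed in no contrast (−0.17 and −0.14 against vehicle). Pdha1, a subunit of pyruvate dehydrogenase, fell by 0.45 ± 0.06 with NRAS off (adjusted p = 2.76e-06) and differed by −0.07 ± 0.06 with the MEK inhibitor (adjusted p = 0.374), where a dimmer probe set fell by 0.35.

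The pentose phosphate genes changed by less than 2-fold throughout. In the oxidative arm Pgls, the lactonase, ranged from 1632 to 1801 (median 1711) in vehicle, from 1256 to 1565 (median 1364) in NRAS-off and from 1359 to 1547 (median 1410) in MEK inhibitor tumours. Both treated groups were below all vehicle tumours, with falls of 0.32 ± 0.05 (adjusted p = 2.95e-05) and 0.27 ± 0.05 (adjusted p = 0.000354). Pgd, the dehydrogenase that follows, averaged 3700 ± 338 in vehicle, 3346 ± 233 in NRAS-off and 4228 ± 452 in MEK inhibitor tumours (SD, n = 6 each). Its rise with the MEK inhibitor (0.19 ± 0.08, adjusted p = 0.0457) was lost in most alternatives and was −0.03 in another probe set, while the gap between the treated groups was −0.33 ± 0.08 (adjusted p = 0.00112).

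In the non-oxidative arm Rpia, the isomerase that yields ribose phosphate, rose. It ranged from 467.8 to 618 (median 526.4) in vehicle, from 751.7 to 846.4 (median 790.8) in NRAS-off and from 568.8 to 671.1 (median 616.1) in MEK inhibitor tumours. NRAS-off tumours stood above all others, with a rise of 0.57 ± 0.06 (adjusted p = 1.77e-07) and a further 0.36 ± 0.06 over the MEK inhibitor tumours (adjusted p = 8.19e-05), which rose by 0.21 ± 0.06 (adjusted p = 0.00745). Tkt, transketolase, which returns pentose carbon to glycolysis, averaged 6917 ± 797 in vehicle, 4026 ± 183 in NRAS-off and 5312 ± 674 in MEK inhibitor tumours (SD, n = 6 each). It fell by 0.77 ± 0.09 (adjusted p = 2.85e-07) and 0.38 ± 0.09 (adjusted p = 0.0012). A dim probe set of Tkt passed in neither (−0.13 and −0.22, adjusted p = 0.243 and 0.0749). Its partner Taldo1, transaldolase, fell by 0.18 ± 0.06 and 0.20 ± 0.06, and the epimerase Rpe fell by 0.29 ± 0.07 with NRAS off and differed by −0.03 ± 0.07 with the MEK inhibitor. Another probe set of Rpe fell with the MEK inhibitor (by 0.25, adjusted p = 0.00541).

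**Figure D3:**
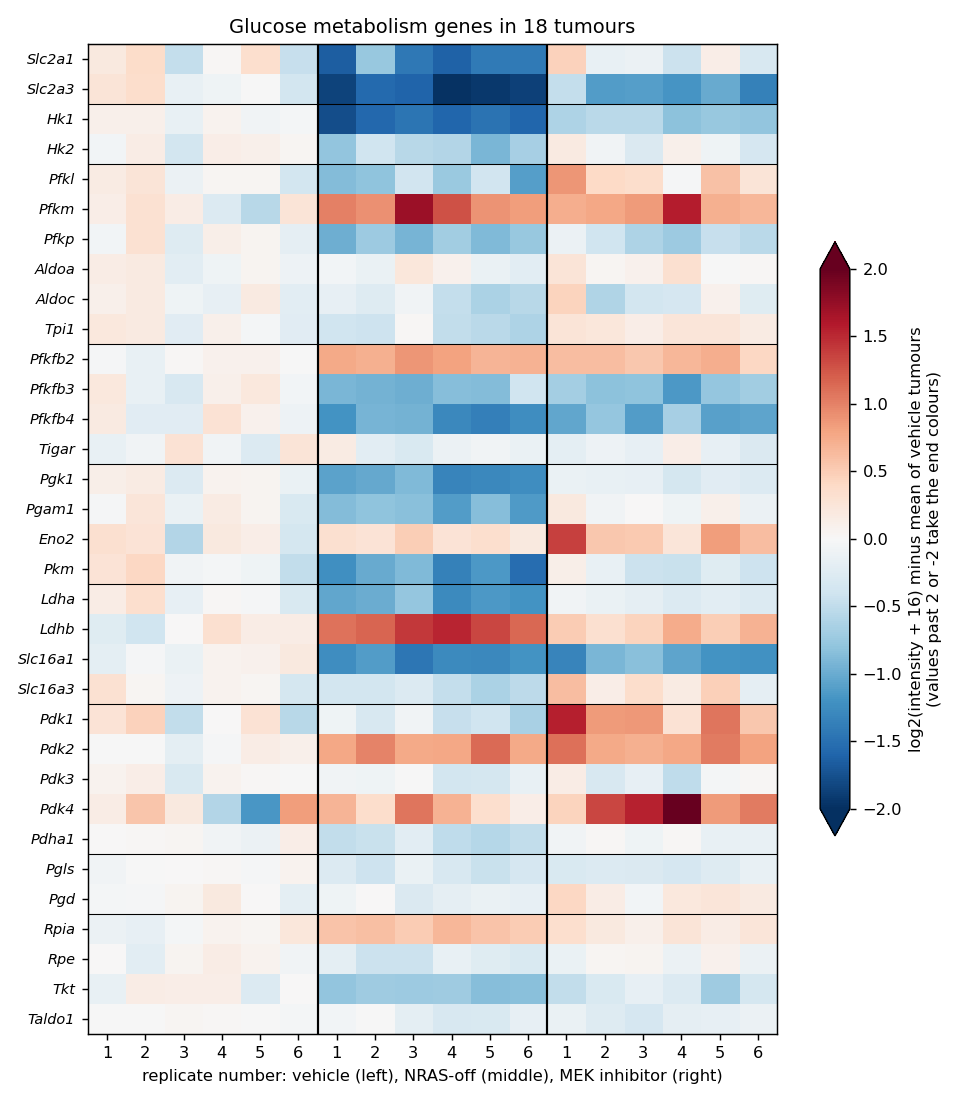
Each gene (rows, by role) in each tumour (columns, by group and replicate number), coloured by log2(intensity + 16) minus the mean of the 6 vehicle tumours; values past 2 or −2 take the end colours. The NRAS-off columns are blue for most genes and red for Pfkm, Pfkfb2, Ldhb, Pdk2 and Rpia, and MEK inhibitor replicate 1 is redder than its group for Slc2a1, Pfkl, Eno2 and Pdk1.

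Within a group the genes varied together in part. Over the 45 pairs of tumours from the same group (15 per group), Slc2a3 ordered the pair as Slc2a1 did in 37, Pfkp in 36, Pfkl, Pgam1 and Pdk1 in 35 and Pgk1 in 34. The median of the other 32 genes was 27 pairs and that of all genes 22, and 5 of 32 reached 35 pairs against 0.793% of all genes. These pairs share arrays and tumours and are given as a description. Among the 33 genes, vehicle replicate 2 held the highest value of its group for 16, NRAS-off replicate 3 for 16 and MEK inhibitor replicate 1 for 19. Vehicle replicates 3 and 6 held the lowest for 11 each. How often each array did so over all genes was not counted, so these counts cannot be read as particular to the 33 genes.

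Transcripts of other cell types moved with the treatments. All 12 skeletal muscle markers rose in both treated groups, while 31.8% of all genes rose with NRAS off and 24.3% with the MEK inhibitor. Their mean log2 score ran from 7.90 to 10.43 in vehicle, 11.32 to 12.15 in NRAS-off and 10.47 to 11.85 in MEK inhibitor tumours. The muscle creatine kinase Ckm read 92.6 to 1126 in vehicle, 1538 to 3581 in NRAS-off and 743.1 to 3382 in MEK inhibitor tumours. Within groups Pfkm followed the muscle score in 41 of 45 tumour pairs, Pdk4 in 41 and Pdha1 in 35, where the median of the 32 genes other than Slc2a1 and that of all genes was 22 and 1.21% of all genes reached 35. With this score as a covariate Pfkm no longer passed (0.025 with NRAS off and 0.18 with the MEK inhibitor, adjusted p = 0.929 and 0.33). In the same fit the adjusted Pdk4 difference was −1.66 with NRAS off (limma adjusted p = 3.6e-05) and −0.11 with the MEK inhibitor (adjusted p = 0.692). The muscle score lay between groups for 73.1% of its variance, and both treated groups lay above all vehicle tumours. The adjusted differences against vehicle, with NRAS off and with the MEK inhibitor, therefore extend the fit to scores that no vehicle tumour had. The NRAS-off change of Slc2a1 went from −1.38 to −0.75 and did not pass (adjusted p = 0.0675), that of Pfkl to −0.41 (adjusted p = 0.256) and that of Pfkfb3 to −0.40 (adjusted p = 0.0864). The NRAS-off calls of Aldoc, Tpi1, Slc16a3, Rpe and Taldo1 and the MEK inhibitor calls of Pfkp, Pgk1, Rpia and Taldo1 were also lost in this fit, whose median SE was 1.92 and 1.46 times as large.

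**Figure D4:**
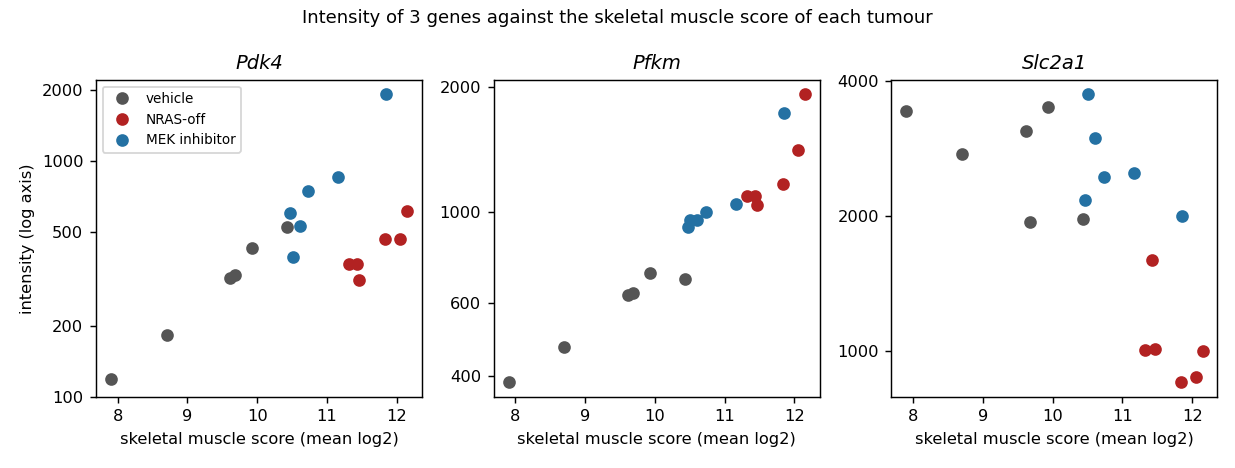
Intensity (y axis, log scale) of Pdk4, Pfkm and Slc2a1 against the skeletal muscle score, the mean log2 of 12 markers (x axis), with 1 point per tumour. Pfkm climbs with the score through all 3 groups, Pdk4 climbs within each group, and Slc2a1 is lowest in NRAS-off tumours, whose scores start at 11.32. Of the other groups only MEK inhibitor replicate 4 (score 11.85) reached these scores, and its Pdk4 value of 1925 was above all NRAS-off tumours.

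Macrophage and stromal markers also differed between the groups. Of all genes 31.8% rose and 27.5% fell with NRAS off, and 24.3% rose and 20.9% fell with the MEK inhibitor. Of 14 macrophage markers 13 rose with NRAS off and 10 fell with the MEK inhibitor, with scores of 10.02 to 10.71 in vehicle, 11.24 to 11.64 in NRAS-off and 8.94 to 10.12 in MEK inhibitor tumours. Of 10 fibroblast markers 8 rose and 2 fell with NRAS off, and 6 rose and 1 fell with the MEK inhibitor, with scores of 12.38 to 12.70, 13.63 to 13.86 and 12.92 to 13.03. Endothelial markers (7 of 8 rose) and adipocyte markers (3 of 5 rose) were higher with NRAS off, and 0 of 8 keratinocyte markers passed in any contrast. The fibroblast score lay between groups for 97.7% of its variance and the macrophage score for 87.1%. With both as covariates 0 of 33 genes were called with NRAS off and 3 with the MEK inhibitor, at a median SE 6.49 and 3.16 times as large. How far these cells set the changes of the 33 genes cannot be told apart from the treatment.

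Other genes of glucose metabolism were read from a list of 80, of which 75 had a probe set and 68 were tested. With NRAS off 30 rose and 18 fell (70.6% called, against 59.3% of all genes), and with the MEK inhibitor 22 rose and 18 fell (58.8%, against 45.2%). Between the treated groups 22 were higher with NRAS off and 10 lower (47.1%, against 47.0%). Of 7 glucose-responsive regulators 4 rose and 1 fell with NRAS off (31.8% and 27.5% of all genes), 2 rose and 2 fell with the MEK inhibitor (24.3% and 20.9%), and 6 were higher with NRAS off than with the MEK inhibitor (24.3%). The 5 largest changes called in each contrast name the genes that follow.

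Txnip, a brake on glucose uptake that binds transporters, went from 1101 ± 334 in vehicle to 4264 ± 665 in NRAS-off and 1918 ± 438 in MEK inhibitor tumours (SD, n = 6 each). It rose by 1.97 ± 0.17 (adjusted p = 1.01e-08) and 0.81 ± 0.17 (adjusted p = 0.000658), and NRAS-off tumours stood above both other groups (1.16 ± 0.17 over MEK inhibitor, adjusted p = 1.39e-05). Its relative Arrdc4 averaged 227 ± 63.8, 438.9 ± 104.7 and 191 ± 30.1 and was higher with NRAS off than with the MEK inhibitor by 1.12 ± 0.16 (adjusted p = 8.58e-06). Myc, which drives several glycolytic genes, fell by 1.84 ± 0.13 with NRAS off and by 2.19 ± 0.13 with the MEK inhibitor, from 1796 ± 401 to 486 ± 85.6 and 377 ± 48.2.

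Of the genes named by this rule, 3 act on glycogen. Ppp1r3c, which targets a phosphatase to glycogen, rose by 1.80 ± 0.16 (adjusted p = 1.21e-08) and 1.68 ± 0.16 (adjusted p = 8.08e-08) without overlap with vehicle. The muscle glycogen phosphorylase Pygm rose by 2.07 ± 0.31 and 1.25 ± 0.31, and the muscle enolase Eno3 by 1.86 ± 0.28 and 1.25 ± 0.28; both are muscle isoforms and moved in the tumours whose muscle markers rose. Ugp2, which makes UDP-glucose for glycogen, was lower with NRAS off than with the MEK inhibitor (−0.83 ± 0.09, adjusted p = 2.51e-07), as was Gpd2, the mitochondrial glycerol phosphate dehydrogenase (−0.83 ± 0.10, adjusted p = 7.41e-07). Gnpnat1, an enzyme of the hexosamine branch, fell by 1.05 ± 0.09 and 1.15 ± 0.09.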

How the data were processed

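The 18 allografts were each read on a 1-colour array. The authors deposited an intensity value for each of 45037 probe sets; the submitters' processing notes name MAS5 and RMA without saying which made them. They were read as linear intensities (lowest value 7.37), and on another scale the folds would differ. Printed folds are ratios of the mean intensities of 2 groups. Log2 changes and counts of genes changed at least 2-fold use log2(intensity + 16). Genes were named from probe sets with 1 platform symbol (932 had several, 9160 none), 1 probe set per gene with the highest mean log2 value. Values were taken as log2(intensity + 16), genes at or below the 25th percentile (intensity 23.5) were left out, and a single limma model (version 3.58.1, R 4.3.3) held all 3 groups (15 residual and 3.46 prior degrees of freedom) after a check on simulated data. All 33 genes are named, with ranges for those changed at least 2-fold without overlap and the first gene of each role, and the 5 largest called changes of the other pathway genes. Members and lists were chosen with earlier results of these data known. Alternatives covered the filter, probe set, normalization, pseudocount, prior, array weights, samples, replicate block, covariates, fold threshold and leaving out each tumour; leaving out 2 tumours together was added after seeing the data. No label gives a batch. Figures used matplotlib 3.10.9.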

Additional observations from a re-analysis of the deposited data

Results flagged for a closer look

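In 99 groups of 6 tumours (33 genes in 3 groups), 7 held a tumour whose gap to the next value exceeded Dixon's critical share of the group's range, where chance gives about 1 in 20. Slc2a1 was 1600 in NRAS-off replicate 2, the keratinocyte-rich tumour, against 850 to 1010 in the other 5. Pfkm was 1730 in MEK inhibitor replicate 4, the tumour with the highest muscle score of its group, against 917 to 1050, and its rise without that tumour was 0.74 (limma adjusted p = 0.000962). Pfkfb3 was 296 in the same tumour, against 376 to 417, and its fall without it was −0.75. Pfkfb3 was 510 in NRAS-off replicate 6, against 334 to 366, and fell by 0.91 without it. NRAS-off replicate 3 was high for Tpi1, at 7230 against 4640 to 5420, and for Pdha1, at 3160 against 2460 to 2690, and without it they fell by 0.49 and 0.50. Pdk3 was 314 in vehicle replicate 3, against 390 to 432, and without it the NRAS-off difference was −0.23 (limma adjusted p = 0.0514).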

How the results depend on the processing

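Leaving out each tumour gave 25 to 27 called with NRAS off (5 to 5 risen, 20 to 22 fallen), 17 to 21 with the MEK inhibitor (8 to 11, 9 to 12) and 19 to 22 between the treated groups (2 to 3, 17 to 19). Apart from the covariates and the 2-fold threshold, 28, 19 and 24 of 33 genes kept their side of the threshold and direction in the 3 contrasts in every setting and probe set. At least 2-fold, 10 genes were called with NRAS off (2 risen, 8 fallen), 3 with the MEK inhibitor (1, 2) and 3 between the treated groups (0, 3). The labels do not say that replicate numbers pair the tumours, and correlations did not settle it. Over 18 pairs r ran from −0.136 to 0.273, with 8 over 0.1 and 6 correlating best with their own number. Between vehicle and MEK inhibitor tumours, replicates 2, 3, 5 and 6 correlated best with their own number (r from 0.109 to 0.273). The replicate block added 2 calls, Pkm (−0.26) and Slc16a3 (0.26) with the MEK inhibitor. With macrophage and fibroblast scores as covariates, calls with NRAS off were 0 (0 risen, 0 fallen), with the MEK inhibitor 3 (1, 2) and between the groups 0 (0, 0), and of all genes 25, 544 and 12 were called, at median SEs 6.49, 3.16 and 4.38 times as large. Signs then turned without passing with NRAS off for Slc2a1 (1.97), Slc2a3 (0.91), Hk2 (0.05), Pfkl (0.83), Pfkp (0.18), Aldoc (2.06), Tpi1 (1.04), Pgk1 (0.25), Pgam1 (0.49), Pkm (1.47), Ldha (0.83), Ldhb (−0.40), Slc16a3 (1.77), Rpia (−0.35) and Taldo1 (0.47). They turned with the MEK inhibitor for Pgk1 (0.21), Ldhb (−0.056), Rpia (−0.11) and Taldo1 (0.22), and between the groups for Slc2a1 (0.97), Slc2a3 (1.08), Pfkl (0.15), Pfkp (0.33), Tpi1 (0.28), Pgk1 (0.044), Pgam1 (0.055), Pkm (0.89), Ldha (0.40), Ldhb (−0.34), Slc16a3 (0.85), Pdk1 (1.35) and Rpia (−0.24). With the muscle score, Pdk4 turned to −1.66 and −0.11, 16 other calls were lost and 5 gained. Lost were those of Slc2a1 (−0.75), Pfkl (−0.41), Pfkm (0.025), Aldoc (−0.19), Tpi1 (−0.44), Pfkfb3 (−0.40), Slc16a3 (−0.32), Rpe (−0.14) and Taldo1 (−0.12) with NRAS off, of Pfkm (0.18), Pfkp (−0.30), Pgk1 (−0.16), Rpia (0.22) and Taldo1 (−0.16) with the MEK inhibitor, and of Pfkp (−0.26) and Pfkfb2 (0.17) between the groups. Gained were Tigar (−0.50) and Eno2 (0.80) with NRAS off, Tigar (−0.38) and Pdha1 (−0.23) with the MEK inhibitor and Pdk4 (−1.55) between the groups. Other probe sets turned Pfkfb2 (−0.10, −0.094 and −0.008 in the 3 contrasts), Pgd with the MEK inhibitor (−0.033) and Tkt between the groups (0.082). Beyond the SEs given, the cause was not tested. Signal at the filter limits dim genes such as Aldoc, Tigar and Slc16a3.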
